A study of Homo sapiens with 32 samples.

Results

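The splicing factor and hnRNP genes are described here as 72 protein-coding genes chosen by symbol among the 18416 protein-coding genes of the table. They comprise 12 SRSF, 9 SF3A and SF3B, 12 SNRP, 12 PRPF, 24 HNRNP and 3 U2AF genes. All 72 reached 1 FPKM (fragments per kilobase, scaled to library size, the authors' unit) in at least 3 groups, as did 17605 protein-coding genes in all. New RNA was captured through 5-ethynyl uridine (EU), a uridine analogue that cells build into it, and sequenced in HUH7, which is a human hepatoma cell line. Before labelling, cells of the 6 release groups spent 24 hours in 2 mM thymidine, 2 hours free of it and 16 hours in 0.06 ug/mL of the spindle poison nocodazole, and were then shaken off and replated. They were labelled with 0.5 mM EU for 40 minutes at 0, 40, 80, 105, 165 or 300 minutes of release, and a culture without any block, called asynchronous, was labelled in the same way. The sources used here do not state whether a time marks the start or the end of the pulse. Every release group therefore carries the history of both drugs and of the shake-off, and the asynchronous culture carries none of it.

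Per the labels there were 3 samples in each of these 7 groups, of 32 samples in 11 groups, but each group is represented by 1 value of the authors per transcript. No replicate error stands behind any value, no test was run, and differences are described by their size alone. FPKM is a relative scale, so that more labelled cells and more RNA per cell cannot be told apart, nor can a change in total synthesis be read from it. The summed FPKM of a group ranged from 6.24e+06 at 0 minutes to 1.06e+07 at 105 minutes, and read depth was not given. The labelled cell line was checked on 9 hepatocyte genes, and all 9 were at or above 100 FPKM in the asynchronous culture. Their summed level was 16437 FPKM there and between 1372 and 3271 FPKM in the release groups, while 4 blood genes summed to at most 57.6 FPKM and 4 stromal and endothelial genes to at most 71.6 FPKM in any group. The part of this difference between cultures in the results below was not tested.

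Introns are removed from new transcripts by the spliceosome, which is assembled from small nuclear ribonucleoprotein particles (snRNPs) and helper proteins. U1 marks the start of the intron, U2AF and the U2 snRNP with its SF3A and SF3B subcomplexes mark the branch site and the end, and the PRPF proteins join with the other snRNPs to form the catalytic core. The SNRP genes encode the ring of Sm proteins that is common to most of these particles and several proteins of U1 and U2. SR proteins, encoded by the SRSF genes, bind exons and mostly favour their use, whereas hnRNP proteins coat new transcripts and often oppose it. In mitosis transcription is largely shut down and splicing factors are dispersed through the cell, and both are restored as the daughter nuclei form.

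The families differed in the letters of their promoters, which are shown first. Whether these letters bear on the response to release was not tested. The 300 bases from 250 before to 50 after the start site were available for 65 of the 72 genes from RefSeq (GRCh38.p14). Motifs were searched on both strands, and matches of different motifs were allowed to share bases. CCGGAAG, a core sequence of ETS factors, was present in 6 of 8 SF3A and SF3B promoters (75%) and 7 of 11 SNRP promoters (63.6%), against 24.3% of promoters of genes with at least 100 FPKM in 3 groups and 15.4% of promoters of all genes kept. It was present in 3 of 23 HNRNP promoters (13.0%), 2 of 11 SRSF promoters (18.2%), 2 of 9 PRPF promoters (22.2%) and 1 of 3 U2AF promoters. CCAAT, the CCAAT box, was found in 15 of 23 HNRNP promoters (65.2%) and 6 of 9 PRPF promoters (66.7%), against 39.2% of promoters of genes at 100 FPKM and 36.4% of all. It was found in 2 of 11 SRSF promoters and in 1 of 8 SF3A and SF3B promoters. The E-box CACGTG stood in 7 of 23 HNRNP promoters (30.4%), in 1 SF3A or SF3B promoter and in no promoter of the other families, against 11.6% of promoters of genes at 100 FPKM and 9.25% of all.

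**Figure D1:**
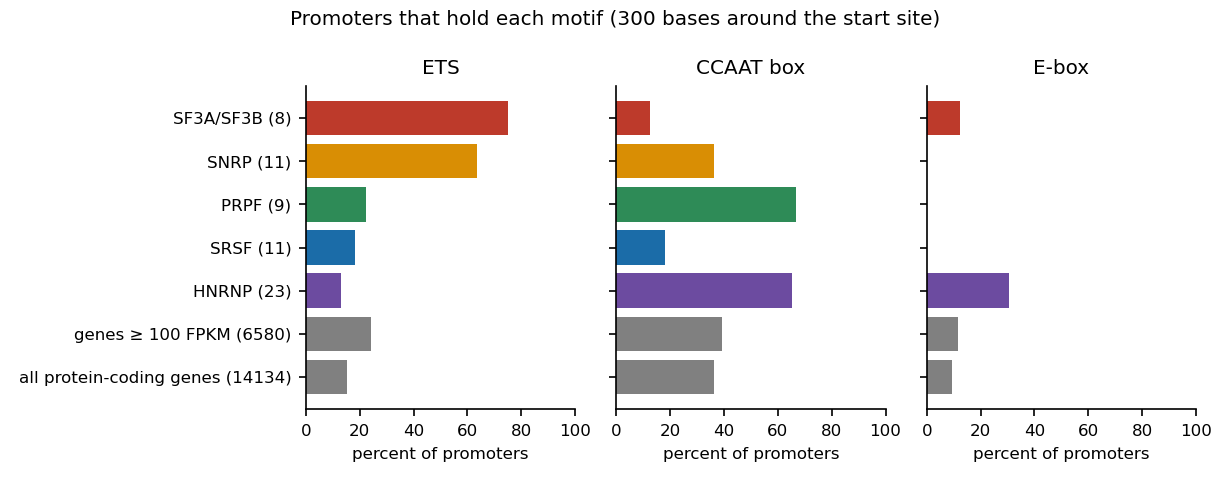
Percent of promoters (horizontal axis) that hold the ETS motif, the CCAAT box or the E-box, for 5 of the 6 families and, in grey, for genes of at least 100 FPKM and all protein-coding genes; numbers in brackets are promoters searched. The ETS bars of SF3A/SF3B (75%) and SNRP (63.6%) stand above the grey bars, and the CCAAT bars of PRPF (66.7%) and HNRNP (65.2%) do so in their panel.

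The Sp1 motif GGGCGG was in 60.0% of member promoters against 71.4% at 100 FPKM. The TATA box, searched as TATAAA, was in 9.23% against 5.93%. The YY1 motif AAGATGGC was in 6.15% against 6.99%, and by family in 3 of 8 SF3A and SF3B promoters (37.5%), 1 of 9 PRPF promoters and none of the others. The CRE motif TGACGTCA and the NRF1 motif were in none of the 65 members' windows, and in 3.97% and 2.74% of those at 100 FPKM. A match is a description of letters and not evidence that a factor binds, and with 8 to 23 promoters in a family, apart from U2AF with 3, each promoter weighs heavily in these shares.

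The 150 bases before the start site are given for 7 genes, 5′ to 3′ on the gene's own strand, with matches to any of the 8 motifs in capitals. No match shown shares a base with another. SF3B6 (chr2:24076327-24076476, minus strand) and SF3A2 (chr19:2236674-2236823, plus strand) are shown as the SF3A and SF3B genes with the highest fold at 80 minutes among those with an ETS match in this window. SF3B5, which had a higher fold than both, had no ETS match in its promoter. SNRPA1 (chr15:101295249-101295398, minus strand) and SNRPD2 (chr19:45692317-45692466, minus strand) are shown for the same reason among the SNRP genes. HNRNPA2B1 (chr7:26200747-26200896, minus strand) and HNRNPA3 (chr2:177212644-177212793, plus strand) had the highest asynchronous levels among HNRNP genes with a CCAAT box here, and SRSF6 (chr20:43457746-43457895, plus strand) had the highest among SRSF genes with a promoter in the table, whatever its motifs.
SF3B6: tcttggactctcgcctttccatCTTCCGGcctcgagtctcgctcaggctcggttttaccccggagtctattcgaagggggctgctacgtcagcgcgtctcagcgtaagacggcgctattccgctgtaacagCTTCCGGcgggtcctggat
SF3A2: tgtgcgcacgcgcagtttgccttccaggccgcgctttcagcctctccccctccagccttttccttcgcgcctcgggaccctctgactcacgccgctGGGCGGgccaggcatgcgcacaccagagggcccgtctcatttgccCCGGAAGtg
SNRPA1: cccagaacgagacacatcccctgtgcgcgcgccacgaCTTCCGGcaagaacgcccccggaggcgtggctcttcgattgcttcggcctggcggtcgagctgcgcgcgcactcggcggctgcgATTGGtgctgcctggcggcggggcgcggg
SNRPD2: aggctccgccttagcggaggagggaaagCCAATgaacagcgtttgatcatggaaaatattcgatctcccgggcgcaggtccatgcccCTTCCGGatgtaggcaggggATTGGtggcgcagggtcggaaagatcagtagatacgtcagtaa
HNRNPA2B1: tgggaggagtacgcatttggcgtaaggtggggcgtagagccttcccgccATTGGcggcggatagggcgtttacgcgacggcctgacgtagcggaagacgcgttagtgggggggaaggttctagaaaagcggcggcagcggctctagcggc
HNRNPA3: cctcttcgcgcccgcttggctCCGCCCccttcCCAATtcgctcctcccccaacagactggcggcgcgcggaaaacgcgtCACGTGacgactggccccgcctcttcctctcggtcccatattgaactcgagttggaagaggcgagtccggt
SRSF6: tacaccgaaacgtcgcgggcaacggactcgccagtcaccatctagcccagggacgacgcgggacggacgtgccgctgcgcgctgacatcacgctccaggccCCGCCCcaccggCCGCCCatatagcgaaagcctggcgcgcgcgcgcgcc
In SF3B6 the ETS motif is present 2 times, both on the reverse strand, starting 128 and 19 bases before the start site. In SF3A2 it begins 9 bases before the start site. SNRPD2 holds a CCAAT box on each side of its ETS motif, and HNRNPA3 holds a CCAAT box, an Sp1 motif and an E-box. SRSF6 holds neither an ETS motif nor a CCAAT box in these bases, only 2 Sp1 motifs.

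In their level of labelled RNA the members lay above most genes. In the asynchronous culture their median was 615 FPKM, against 70.9 FPKM for all genes kept and 241 FPKM for genes with at least 100 FPKM in 3 groups. SRSF and HNRNP genes were highest, with medians of 1516 and 1252 FPKM, followed by SNRP (445 FPKM), U2AF (443 FPKM), PRPF (329.8 FPKM) and SF3A and SF3B (308 FPKM). FPKM is per length, but which length the authors used is not given. Among the members 64 of 72 reached 100 FPKM in 3 groups. Because the share of genes past 2-fold differed with level, values over all genes and over genes of at least 100 FPKM are both given.

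At 0 minutes of release most members were below their asynchronous level. The median log2 difference in FPKM + 1 was -0.48, against -0.21 for all genes kept and -0.58 for genes of at least 100 FPKM. Lower were 69 of 72 members, 10007 of 17605 genes kept and 6206 of 7826 genes of at least 100 FPKM. The members' direction depends on the scale. With columns scaled to equal medians the members' median was 0.037, and with quantile normalization, which gives every column the same set of values, it was 0.0018. At least 2-fold lower were 6 members (8.33%), against 19.1% of all genes and 24.9% of genes of at least 100 FPKM: PRPF19, HNRNPCL4, SRSF4, HNRNPF, HNRNPR and SRSF10. SNRPN alone was at least 2-fold higher (1.39%, against 13.2% of all genes and 4.28% at 100 FPKM). Family medians lay between -0.36 (U2AF) and -0.59 (PRPF) on the authors' scale. Under equal medians the signs of SRSF, SNRP, HNRNP and U2AF turned, and under quantile normalization those of SF3A and SF3B, SNRP and U2AF.

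PRPF19, the ubiquitin ligase of a complex that joins the spliceosome at activation, was the lowest of the 72 by this measure. It was at 368 FPKM at 0 minutes, 494 at 40, 887 at 80, 957 at 105, 1109 at 165 and 1178 at 300 minutes, and at 1059.9 FPKM in the asynchronous culture. It was thus 2.87-fold lower at 0 minutes than without a block, 2.40-fold higher at 80 than at 0 minutes, and highest at the last time. SRSF4, a large SR protein, was at 346 FPKM at 0 minutes, 407 at 40, 501 at 80, 541 at 105, 627 at 165 and 577 at 300 minutes, and at 869.9 FPKM in the asynchronous culture. It began 2.51-fold below the asynchronous value and stayed below it at every time. SRSF10, a relative that represses splicing when it loses its phosphates in mitosis, was 2.04-fold lower at 0 minutes (699 against 1425 FPKM).

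The 2 members with the highest asynchronous levels, HNRNPH1 and HNRNPA2B1, differed little between 0 minutes and the asynchronous culture, while SRSF6, the next in order, was 1.58-fold lower at 0 minutes. HNRNPH1, whose product binds G-rich RNA, was at 5004 FPKM at 0 minutes, 6165 at 40, 7079 at 80, 7169 at 105, 6086 at 165 and 6298 at 300 minutes, and at 5040.3 FPKM in the asynchronous culture. HNRNPA2B1, an abundant coat protein of new transcripts, was at 4333 FPKM at 0 minutes and 4286 FPKM in the asynchronous culture, with its highest value, 5727 FPKM, at 80 minutes. SRSF2 (2957 and 3039 FPKM) and SRSF3 (2126 and 2159 FPKM), exon-binding SR proteins picked out after their values were seen, also had similar values in both. SNRPN, an imprinted relative of the Sm gene SNRPB, was at 16.1 FPKM at 0 minutes and 7.52 FPKM in the asynchronous culture, 2.01-fold higher, and it is a low value. With 5 FPKM added in place of 1 it was no longer at 2-fold. SNRPN, HNRNPA2B1 and SRSF12 (50.1 against 45.4 FPKM) were the 3 members above their asynchronous level at 0 minutes.

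At 40 minutes the members were slightly higher than at 0 minutes. The median log2 difference was 0.30, against 0.11 for all genes and 0.21 for genes of at least 100 FPKM. Higher were 63 of 72 members, 11801 of 17605 genes kept and 6748 of 7826 genes of at least 100 FPKM. The members' share was thus close to that of genes of at least 100 FPKM. Their median was 0.20 with equal medians. With quantile normalization the medians of SRSF, SNRP, PRPF and HNRNP were slightly negative, at -0.012, -0.012, -0.028 and -0.067. One gene, SF3B5, was at least 2-fold higher (1.39% of members, against 1.87% of all genes and 0.664% at 100 FPKM), and no member was at least 2-fold lower (1.05% of all genes and 0.0128% at 100 FPKM).

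SF3B5, the smallest subunit of SF3B, was at 166 FPKM at 0 minutes, 534 at 40, 584 at 80, 554 at 105, 153 at 165 and 152 at 300 minutes, and at 308 FPKM in the asynchronous culture. It formed a plateau from 40 to 105 minutes with low values before and after. The gene has a single exon and spans 0.69 kb, the shortest of the 72. It was 3.2-fold higher at 40 than at 0 minutes, 3.50-fold higher at 80 than at 0 minutes, and 3.81-fold lower at 300 than at 80 minutes. HNRNPA0, which also has a single exon, came next at 40 minutes. It was at 868 FPKM at 0 minutes, 1462 at 40, 1083 at 80, 1068 at 105, 894 at 165 and 705 at 300 minutes, and at 1193 FPKM in the asynchronous culture. Its highest value came before that of nearly all other members, since HNRNPA1L2 alone also peaked at 40 minutes. HNRNPA1L2 has a single exon too, as have SRSF8 and HNRNPCL4, which both peaked at 300 minutes. HNRNPL, which binds CA-rich RNA, was 1.54-fold higher at 40 minutes (1484 against 964 FPKM).

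The main difference lay between 0 and 80 minutes, and it differed by family. Of the 72 members 26 (36.1%) were at least 2-fold higher at 80 than at 0 minutes, against 19.6% of all genes and 33.3% of genes of at least 100 FPKM. The members as a whole were thus close to genes of at least 100 FPKM, a set not matched to them in level. The median log2 difference was 0.83, against 0.36 for all genes and 0.77 for genes of at least 100 FPKM. HNRNPCL2 alone was at least 2-fold lower (1.74% of all genes and 0.0639% at 100 FPKM). The family medians were 1.26 for SF3A and SF3B, 1.11 for SNRP, 1.01 for PRPF, 0.67 for SRSF, 0.67 for HNRNP and 0.52 for U2AF. At least 2-fold higher were 7 of 9 SF3A and SF3B genes, 7 of 12 SNRP genes and 6 of 12 PRPF genes. In the other families these were 1 of 12 SRSF genes (SRSF7), 4 of 24 HNRNP genes (HNRNPDL, HNRNPUL2, HNRNPD and HNRNPUL1) and 1 of 3 U2AF genes (U2AF2).

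The sizes depend on the scale, and the order of the families less so. With equal medians 3 members were at least 2-fold higher, against 6.31% of all genes, and with quantile normalization 0, against 5.54%, with a median of 0.053 over the members and medians below 0 for SRSF (-0.062) and HNRNP (-0.034). SF3A and SF3B came first, then SNRP, then PRPF, all above the other 3 families, in all 9 settings computed. Most of these settings could hardly change the order. With no filter, with 10 FPKM required and with the highest transcript the family medians were unchanged. Equal medians shifts all genes by nearly the same amount. With quantile normalization the medians of SF3A and SF3B, SNRP and PRPF were 0.31, 0.28 and 0.20. As a scale for these values, 87 ribosomal protein genes had a median of 1.07 with 48 at least 2-fold higher, and 40 proteasome subunit genes a median of 0.67 with 4.

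**Figure D2:**
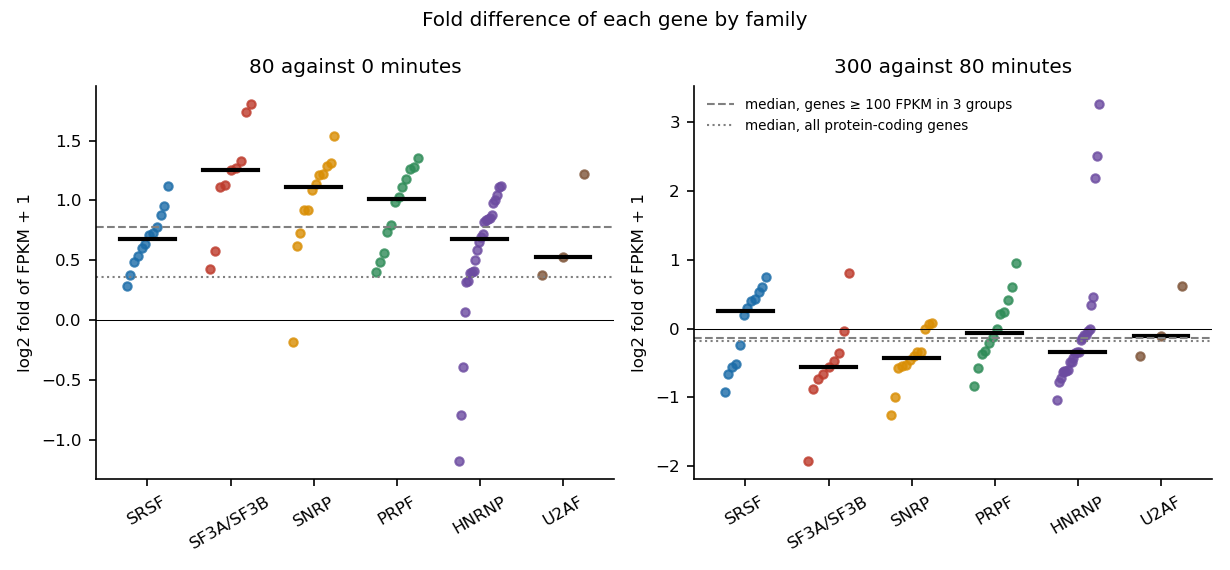
Log2 fold of FPKM + 1 (vertical axis) for each gene by family, for 80 against 0 minutes on the left and 300 against 80 minutes on the right; points are genes, black bars family medians, the dashed and dotted lines the medians of genes of at least 100 FPKM and of all protein-coding genes. On the left the bars of SF3A/SF3B (1.26), SNRP (1.11) and PRPF (1.01) lie above the dashed line (0.77); on the right 3 HNRNPCL genes lie far above the rest.

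SF3B5 and SF3B6, 2 small subunits of SF3B, had the highest folds of the 72 members at 80 minutes. SF3B6, which touches the branch-site adenosine, was at 121 FPKM at 0 minutes, 165 at 40, 406 at 80, 288 at 105, 274 at 165 and 243 at 300 minutes, and at 154 FPKM in the asynchronous culture. Its value at 80 minutes was 3.34-fold that at 0 minutes, and from 40 minutes on every value was above the asynchronous one. SF3B1, the large subunit that clamps the branch helix, was at 611 FPKM at 0 minutes, 749 at 40, 1338 at 80, 1275 at 105, 1052 at 165 and 846 at 300 minutes, and at 677 FPKM in the asynchronous culture. It was 2.19-fold higher at 80 than at 0 minutes, but its 2 sets of transcript values gave 1.87-fold and 2.53-fold, and with the highest transcript alone it was under 2-fold. SF3B4, the most abundant of the family in the asynchronous culture, was 2.16-fold higher (1044 against 482 FPKM).

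SF3B3, the propeller-shaped scaffold of the same subcomplex, took another course. It was at 277 FPKM at 0 minutes, 307 at 40, 373 at 80, 466 at 105, 646 at 165 and 654 at 300 minutes, and at 546 FPKM in the asynchronous culture. It was 1.35-fold higher at 80 than at 0 minutes, the lowest of its family, and 1.75-fold higher at 300 than at 80 minutes. SF3A3 was also late, with 158 FPKM at 0 minutes, 236 at 80 and its highest value, 299 FPKM, at 165 minutes. SF3B3 spans 53.9 kb and SF3A3 33 kb, while SF3B1, which peaked at 80 minutes, spans 45.3 kb.

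Among the snRNP genes, SNRPA1, a protein specific to U2, had the highest fold. It was at 475 FPKM at 0 minutes, 586 at 40, 1378 at 80, 1095 at 105, 883 at 165 and 688 at 300 minutes, and at 663 FPKM in the asynchronous culture. Its value at 80 minutes was 2.90-fold that at 0 minutes and was above every other group. Of the 7 Sm ring genes, SNRPB, SNRPD2, SNRPE and SNRPG were at least 2-fold higher at 80 minutes (2.2, 2.44, 2.49 and 2.31-fold), and SNRPD1, SNRPD3 and SNRPF were 1.53, 1.89 and 1.89-fold higher. SNRPD2 was at 163 FPKM at 0 minutes, 165 at 40, 399 at 80, 249 at 105, 122 at 165 and 166 at 300 minutes, and at 172 FPKM in the asynchronous culture. Of its 7 values, those at 80 and 105 minutes stood apart from the other 5. SNRPA, a U1 protein, was 2.33-fold higher at 80 minutes and peaked at 300 minutes (662 FPKM, against 371 FPKM in the asynchronous culture).

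**Figure D3:**
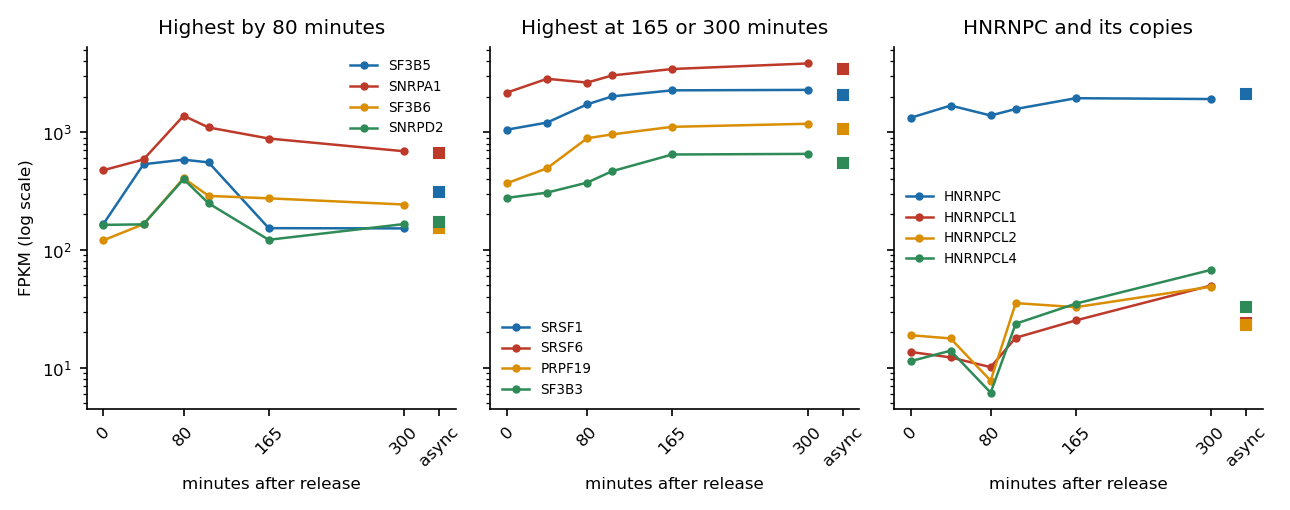
FPKM on a log axis against minutes after release for 4 genes high at 80 minutes (left), 4 genes highest at 165 or 300 minutes (middle), and HNRNPC with 3 copies (right); squares mark the asynchronous culture. SF3B5 is at 534 to 584 FPKM from 40 to 80 minutes and at 152 FPKM at 300 minutes, while SF3B3 climbs from 277 to 654 FPKM.

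Among the PRPF genes, PRPF4, a protein of the U4/U6 particle, led at 80 minutes. It was at 271 FPKM at 0 minutes, 363 at 40, 695 at 80, 528 at 105, 511 at 165 and 467 at 300 minutes, and at 387 FPKM in the asynchronous culture, 2.56-fold higher at 80 than at 0 minutes. PRPF38B, the most abundant of the family in the asynchronous culture, was 2.27-fold higher at 80 minutes and then stayed between 1540.3 and 1616 FPKM. PRPF8, the scaffold of the catalytic core, took the late course. It was at 155 FPKM at 0 minutes, 214 at 40, 229 at 80, 286 at 105, 342 at 165 and 351 at 300 minutes, and at 290.4 FPKM in the asynchronous culture. PRPF40B, at 16.7 FPKM at 0 minutes and 44.2 FPKM at 300 minutes, was the least abundant of the family and also peaked last.

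Of the 3 U2AF genes, U2AF2, whose product binds the pyrimidine tract, was at 392 FPKM at 0 minutes, 546 at 40, 916 at 80, 750.1 at 105, 579 at 165 and 695 at 300 minutes, and at 443 FPKM in the asynchronous culture. U2AF1, its partner at the 3′ AG, was at 902 FPKM at 0 minutes, 1188 at 40, 1169.6 at 80, 1394 at 105, 1460.5 at 165 and 1083 at 300 minutes, and at 1209.7 FPKM in the asynchronous culture. The partners thus peaked at different times, at 2.33-fold and 1.3-fold for 80 against 0 minutes. U2AF1L4, a relative of U2AF1, was at 41.9 FPKM at 0 minutes, 48.7 at 40, 60.6 at 80, 44.6 at 105, 69.0 at 165 and 93.9 at 300 minutes, and at 54.0 FPKM in the asynchronous culture.

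The time of the highest value also differed by family. The highest release value lay at 165 or 300 minutes for 7 of 12 SRSF genes, 6 of 12 PRPF, 2 of 9 SF3A and SF3B, 3 of 12 SNRP, 6 of 24 HNRNP and 2 of 3 U2AF genes. Over all members it lay there for 26 of 72 (36.1%), against 45.1% of genes of at least 100 FPKM and 35.4% of all genes, and at 80 or 105 minutes for 43 (59.7%), against 50.7% and 36.6%. Among the members that reached 100 FPKM in 3 groups it lay at 165 or 300 minutes for 5 of 10 SRSF genes, close to the 45.1%, and for 5 of 11 PRPF, 2 of 9 SF3A and SF3B, 3 of 11 SNRP, 3 of 21 HNRNP and 1 of 2 U2AF genes. With quantile normalization 25 members peaked at 80 or 105 minutes. The 7 late SRSF genes were SRSF1, SRSF4, SRSF6, SRSF8, SRSF10, SRSF11 and SRSF12.

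**Figure D4:**
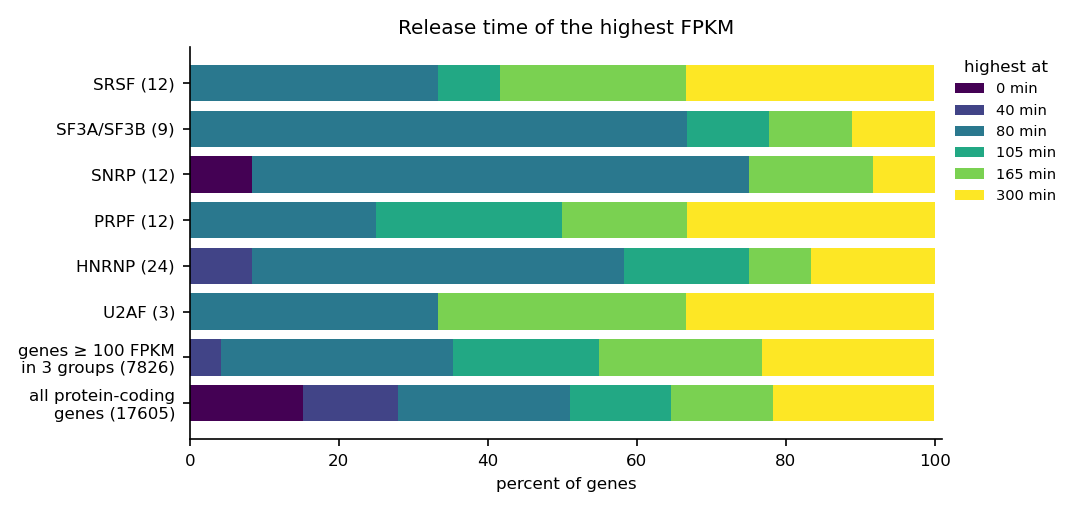
Percent of genes (horizontal axis) whose highest FPKM of the 6 release groups fell at each time, by family and for both backgrounds; numbers in brackets are genes. At 165 or 300 minutes lie 58.3% of SRSF and 22.2% of SF3A/SF3B genes, against 45.1% of genes of at least 100 FPKM; without the 2 SRSF genes below that level the SRSF share is 5 of 10.

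SRSF6, the most abundant SRSF gene in the asynchronous culture, was at 2168 FPKM at 0 minutes, 2837 at 40, 2635 at 80, 3029 at 105, 3436 at 165 and 3828 at 300 minutes, and at 3435 FPKM in the asynchronous culture. It was 1.22-fold higher at 80 than at 0 minutes, the lowest of the family. SRSF1, the founding SR protein, was at 1049 FPKM at 0 minutes, 1206 at 40, 1721 at 80, 2011 at 105, 2264 at 165 and 2284 at 300 minutes, and at 2086 FPKM in the asynchronous culture. Both first reached the asynchronous level at 165 minutes, where the SRSF6 values (3436 and 3435 FPKM) were nearly equal. SRSF7, which also serves in RNA export, peaked at 80 minutes instead. It was at 1307 FPKM at 0 minutes, 1799 at 40, 2841 at 80, 2395 at 105, 1838 at 165 and 1800.1 at 300 minutes, and at 1608 FPKM in the asynchronous culture. SRSF2 peaked with it, at 4883 FPKM at 80 minutes, and was at 2576 FPKM at 300 minutes.

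Between 80 and 300 minutes the families parted. The median log2 difference was -0.56 for SF3A and SF3B, -0.43 for SNRP, -0.34 for HNRNP, -0.11 for U2AF, -0.07 for PRPF and 0.25 for SRSF, against -0.19 for all genes and -0.14 for genes of at least 100 FPKM. The medians of PRPF, HNRNP and U2AF turned positive with quantile normalization (0.25, 0.11 and 0.27), those of SF3A and SF3B and of SNRP stayed negative (-0.29 and -0.15), and that of SRSF was -0.016 when SRSF8 and SRSF12, the 2 genes that did not reach 100 FPKM in 3 groups, were left out. Over all 72 members the median was -0.34, and 0.044 with quantile normalization. At least 2-fold lower at 300 minutes were SF3B5, SNRPD2, HNRNPLL and SNRPA1 (5.56% of members, against 12.7% of all genes and 14.5% at 100 FPKM). At least 2-fold higher were HNRNPCL1, HNRNPCL2 and HNRNPCL4 (4.17%, against 7.14% and 6.68%). This comparison shares the 80 minute value with that of 80 against 0 minutes, so a high value at 80 minutes enters both.

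The 3 HNRNPCL genes are copies of HNRNPC and low in these data. Their transcripts matched those of HNRNPC at 90.9%, 90.2% and 93.1% identity for HNRNPCL1, HNRNPCL2 and HNRNPCL4. Those of HNRNPCL2 and HNRNPCL4 matched HNRNPCL1 more closely, at 97.7% and 95.4%, so the copies cannot be counted as 3 independent values. The sources used here do not say how reads that match several places were assigned, and these values are uncertain. HNRNPCL4 was at 11.4 FPKM at 0 minutes, 14 at 40, 6.14 at 80, 23.6 at 105, 35.0 at 165 and 67.8 at 300 minutes, and at 32.8 FPKM in the asynchronous culture. HNRNPCL2 was at 18.9 FPKM at 0 minutes, 17.7 at 40, 7.76 at 80, 35.4 at 105, 32.7 at 165 and 48.7 at 300 minutes, and at 23.1 FPKM in the asynchronous culture. HNRNPCL1 was at 13.6 FPKM at 0 minutes, 12.2 at 40, 10.1 at 80, 18.0 at 105, 25.2 at 165 and 49.9 at 300 minutes, and at 23.8 FPKM in the asynchronous culture. All 3 were lowest at 80 minutes and highest at 300 minutes, at 9.63, 5.68 and 4.58 times the value at 80 minutes for HNRNPCL4, HNRNPCL2 and HNRNPCL1.

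HNRNPC itself, a nuclear protein that binds uridine-rich RNA, was at 1322 FPKM at 0 minutes, 1682 at 40, 1384 at 80, 1572 at 105, 1941 at 165 and 1910.2 at 300 minutes, and at 2110.3 FPKM in the asynchronous culture. It was 1.05-fold higher at 80 than at 0 minutes, and 1.38-fold higher at 300 than at 80 minutes. HNRNPA1L2 matched HNRNPA1 at 98.4% identity and is uncertain for the same reason; it lay between 182 and 243 FPKM in all groups, against 2845 to 4482 FPKM for HNRNPA1. HNRNPDL, an hnRNP D relative, led the family at 80 minutes. It was at 1475 FPKM at 0 minutes, 2051 at 40, 3200.4 at 80, 2796 at 105, 2143 at 165 and 1876 at 300 minutes, and at 2345 FPKM in the asynchronous culture. HNRNPLL, a regulator of alternative exons, was at 152 FPKM at 0 minutes, 134 at 40, 274 at 80, 259 at 105, 179.7 at 165 and 133 at 300 minutes, and at 201 FPKM in the asynchronous culture.

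By 300 minutes the members were close to the asynchronous culture. The median log2 difference was 0.15, against 0.12 for all genes and 0.14 for genes of at least 100 FPKM. At least 2-fold higher were 4 members (5.56%, against 9.44% of all genes and 9.72% at 100 FPKM): SRSF12 and the 3 HNRNPCL genes. SF3B5 alone was at least 2-fold lower, at 2.01-fold (1.39%, against 8.58% and 8.34%), and it was not at 2-fold with equal medians. SRSF12 was at 50.1 FPKM at 0 minutes, 45.7 at 40, 65.4 at 80, 74.9 at 105, 98.8 at 165 and 111 at 300 minutes, and at 45.4 FPKM in the asynchronous culture, 2.42-fold higher at 300 minutes. The lowest members after SF3B5 were HNRNPF and HNRNPA0, both 1.69-fold lower. HNRNPF, which like HNRNPH1 binds G-rich RNA, was at 482 FPKM at 0 minutes, 570.3 at 40, 796 at 80, 793 at 105, 688 at 165 and 629.8 at 300 minutes, and at 1065 FPKM in the asynchronous culture.

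Seen against the asynchronous level, 3 of 72 members were at or above it at 0 minutes, 22 at 40, 53 at 80, 54 at 105, 57 at 165 and 44 at 300 minutes. For genes of at least 100 FPKM the shares were 20.7%, 31.3%, 60.9%, 65.1%, 64.1% and 59.6% in this order. For all genes kept they were 43.2%, 48.6%, 63.7%, 63.9%, 60.0% and 59.6%. The members were close to genes of at least 100 FPKM at 40 (30.6%) and 300 minutes (61.1%). They were below both backgrounds at 0 minutes (4.17%) and above both at 80 (73.6%), 105 and 165 minutes (79.2%). The level was first reached at 80 minutes by 33 members, at 40 minutes by 19, at 165 minutes by 9 and at 105 minutes by 4. HNRNPC, HNRNPF, HNRNPR and SRSF4 did not reach it. At 80 minutes 11 of 12 SNRP genes and 7 of 9 SF3A and SF3B genes were at or above it. For SRSF it was 8 of 12 and for HNRNP 16 of 24 genes (66.7% each), near the background shares at this time. At 165 minutes it was 12 of 12 PRPF and 11 of 12 SRSF genes. HNRNPR, a relative of SYNCRIP, was at 282 FPKM at 0 minutes, 375 at 80 and 474 at 300 minutes, and at 596 FPKM in the asynchronous culture.

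**Figure D5:**
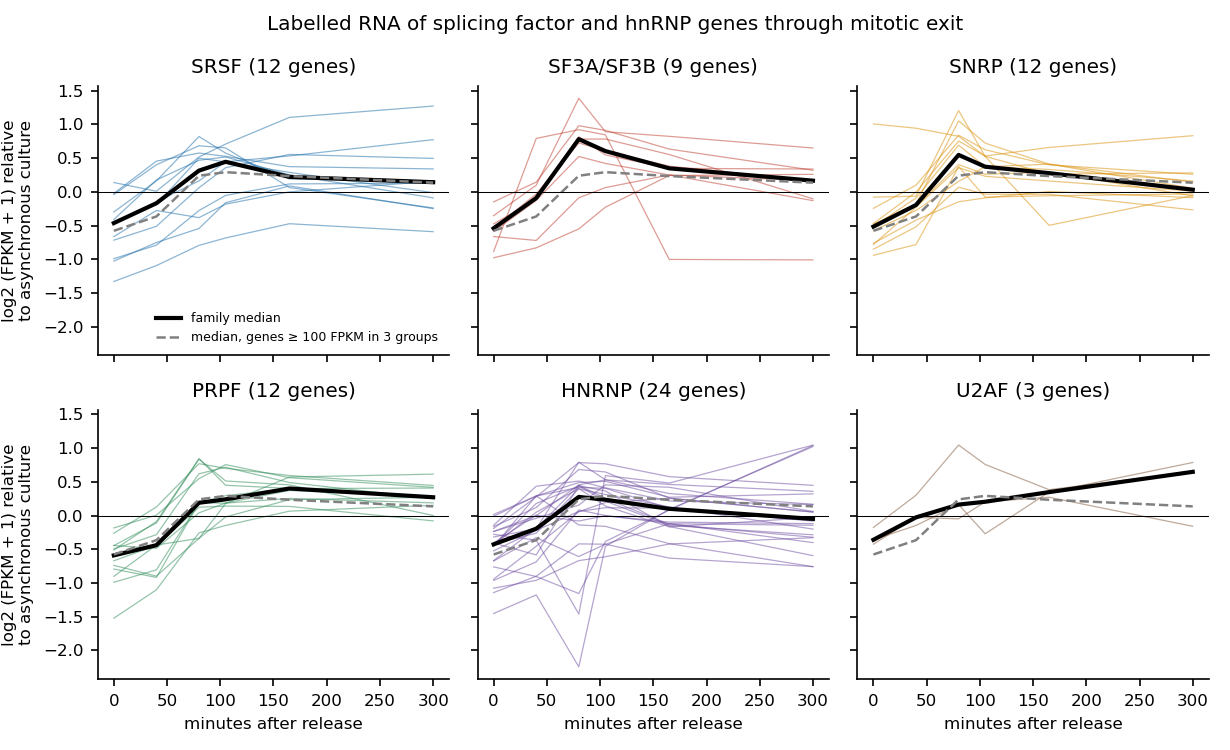
Log2 of FPKM + 1 relative to the asynchronous culture (vertical axis) against minutes after release, one panel per family; thin lines are genes, the black line the family median and the dashed grey line the median of genes of at least 100 FPKM. The SF3A/SF3B median reaches 0.78 at 80 minutes and is 0.17 at 300 minutes; the PRPF median is highest, at 0.40, at 165 minutes.

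Late maxima were more frequent among the longest genes. Of 22 members spanning under 10 kb 6 peaked at 165 or 300 minutes (27.3%), of 33 members of 10 to 30 kb 10 did (30.3%), and of 17 members over 30 kb 10 did (58.8%). Over all genes the shares were 22.2%, 29.5% and 44.9%. At 80 against 0 minutes the median log2 difference was 0.86, 0.92 and 0.58 in the 3 classes of members, and 0.67, 0.53 and 0.19 over all genes. The rank correlation (Spearman) of span with this difference was weak over the members, at -0.11, and -0.27 over all genes. For 300 against 80 minutes it was 0.18 and 0.30. By family, SRSF genes had the shortest median span (9.66 kb) and late maxima in 7 of 12 genes. PRPF genes had the longest (26.9 kb) and late maxima in 6 of 12. With 100 FPKM required in 3 groups these were 5 of 10 and 5 of 11. The part of length in the family differences was not tested.

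Members with the ETS motif shown above differed at 80 minutes from those without it, but the motif also followed the families. The part of the motif apart from the family was not tested. Of 21 members with the motif 13 (61.9%) were at least 2-fold higher at 80 than at 0 minutes and 3 (14.3%) peaked at 165 or 300 minutes. Of 44 members without it 12 (27.3%) were at least 2-fold higher and 19 (43.2%) peaked at 165 or 300 minutes. Among genes of at least 100 FPKM the shares at least 2-fold higher were 40.5% of 1602 with the motif and 31.7% of 4978 without, and the shares of late maxima were 44.6% and 45.8%. Split by family, 11 of 13 SF3A, SF3B and SNRP genes with the motif (84.6%) and 3 of 6 without it (50%) were at least 2-fold higher. The 3 without it were SF3B5, which had the highest fold of all members, SNRPA and SF3B1. In the other families 2 of 8 with the motif (25%) and 9 of 38 without it (23.7%) were at least 2-fold higher. Late maxima were seen in 1 of those 8 and 18 of those 38. For the CCAAT box the members' shares at least 2-fold higher were 32.1% of 28 with it and 43.2% of 37 without.

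Other genes of the pathway were taken from lists of spliceosome biology, and their values are on the authors' scale. At 80 against 0 minutes 21 of 61 other spliceosome proteins passed 2-fold upward (34.4%, against 33.3% of genes of at least 100 FPKM and 19.6% of all) and 0 downward. Their median log2 difference was 0.72, against 0.77 and 0.36, so that this list was close to genes of at least 100 FPKM. BUD31, a protein of the active spliceosome, was highest at 3.05-fold (635.8 FPKM at 0 minutes, 1944 at 80 and 469 at 300 minutes), followed by CDC40, a second-step factor, at 2.81-fold. AQR, the intron-binding helicase, and CTNNBL1 were lowest, both at 1.12-fold. Of 9 proteins of the minor spliceosome, which removes a rare class of introns, 5 (55.6%) were at least 2-fold higher and 0 lower (median 1.05), led by SCNM1 at 2.93-fold and SNRNP48 at 2.78-fold, with ZCRB1 at 1.81-fold and SNRNP25 at 1.54-fold the lowest. The exon junction complex, which marks spliced exon borders, had 3 of 5 genes (60.0%) at least 2-fold higher and 0 lower (median 1.29). EIF4A3, its core helicase, was at 496 FPKM at 0 minutes, 863 at 40, 1482 at 80, 951 at 105, 483 at 165 and 447 at 300 minutes, and at 343 FPKM in the asynchronous culture. MAGOH was 2.54-fold higher, and CASC3 and RBM8A were 1.75-fold and 1.64-fold higher.

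Among 13 genes of the SMN complex and Sm assembly, which load Sm rings onto snRNAs, 5 were at least 2-fold higher at 80 minutes (38.5%, against 33.3% of genes of at least 100 FPKM and 19.6% of all) and 0 lower (median 0.70). SMN1 and SMN2, near-identical gene copies, are 2 of these 5 and carried nearly the same values (286 FPKM each at 0 minutes and 589 each at 80), so they are not 2 independent values. GEMIN8 and GEMIN6 led at 2.27-fold and 2.26-fold, and GEMIN2 (1.22-fold) and CLNS1A (1.17-fold) were lowest. Of 16 other SR-related proteins 0 were at least 2-fold higher or lower at 80 minutes (median 0.59), and 12 (75%) peaked at 165 or 300 minutes, against 45.1% of genes of at least 100 FPKM. In the other lists this share was 41.0% for spliceosome proteins, 33.3% for the minor spliceosome, 53.8% for SMN and Sm assembly, 55.6% for hnRNP proteins of other names and 20.0% for the exon junction complex. Their folds at 80 minutes ran from 1.33-fold (SCAF1) and 1.35-fold (RBM39) to 1.75-fold (SREK1) and 1.86-fold (RNPS1). Of 7 kinases that phosphorylate SR proteins 5 (71.4%) peaked at 165 or 300 minutes, and CLK3 alone was at least 2-fold higher at 80 minutes (2.29-fold) and 0 were at least 2-fold lower (median 0.77). CLK2 was 1.87-fold higher, while DYRK1A and SRPK2 were 1.10-fold and 1.32-fold lower at 80 than at 0 minutes. Of 27 hnRNP proteins of other names and splicing regulators 4 (14.8%) were at least 2-fold higher and 0 lower (median 0.56). ESRP2, an epithelial splicing regulator, was highest at 3.58-fold (194 FPKM at 0 minutes, 695 at 80 and 172 at 300 minutes), and its relative ESRP1, at 16.7 FPKM at 0 minutes and 13.9 FPKM at 80 minutes, was lowest. NONO, a paraspeckle protein, was 2.25-fold higher, and MBNL2 was 1.16-fold lower.

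Named after their values were seen, beside SRSF2 and SRSF3, were the members whose call made up a count (HNRNPD, HNRNPUL2), HNRNPA1 as the partner of its copy, and the members of the Sm ring. SF3A2 and HNRNPA3 were named for their promoters.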

How the data were processed

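Nascent RNA of 7 groups was analysed. Per the file headers, the authors deposited FPKM for each RefSeq transcript as 1 column per group without columns per library, so no count test, replicate error or p-value could be given. Per the submitters' processing notes, bcl2fastq, Bowtie2 2.2.9, TopHat, bedtools and hg19 were used. The sources used here do not give their roles, the annotation, use of strand, read assignment, pooling or read depth. Summed FPKM times spliced length was above what literal FPKM of transcripts allows in every group, so levels are used only in relation to each other. In 95.3% of 3254 pairs of transcripts with the same ends but other spliced lengths the values were identical. The unlabelled control and the set with spike-in RNA were not used here.

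NM transcripts (37695 of 38336) were matched to symbols through a RefSeq table of GRCh38.p14, and a gene's value is the mean of its distinct transcript values (10 of 72 members had several). A gene was kept where 3 or more groups reached 1 FPKM (17605 of 18416). Folds are ratios of FPKM + 1, which understates differences of low genes, in 5 comparisons that share groups: 40 and 80 minutes share 0 minutes, 80 and 300 share 80, and 0 and 300 share the asynchronous culture. The members and lists were chosen with earlier results of these data known. Genes were named by rule (highest level, highest and lowest folds per family and comparison, maxima outside 80 or 105 minutes, and the 2 highest and 2 lowest of each list), with exceptions stated. Promoters and gene spans are of RefSeq, GRCh38.p14, and the transcripts compared and exon counts of GENCODE 29, not of the authors' build. Copies were compared with BLAST 2.17.0. Python 3.11.15, pandas 2.3.3, numpy 2.4.6 and matplotlib 3.10.9 were used, and the fold and count steps were tested on simulated data. Alternatives were other pseudocounts (0.1 and 5), filters (none, 10 FPKM and, added after seeing the data, 100 FPKM), the highest transcript, equal medians and quantile normalization.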

Additional observations from a re-analysis of the deposited data

How the results depend on the processing

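No paired analysis was possible because each group is 1 pooled column with no replicate, and leaving out a replicate was not possible for the same reason. Protein features planned for the members were not run. Depth is unknown, so the precision of values near 10 FPKM cannot be given. Of the values for all members 21 moved by more than 1.5-fold (0.58 for a log2 median) and 6 changed sign; the other 149 stayed within that tolerance, which is wide for small medians. The members' median relative to all genes for 0 minutes against the asynchronous culture, for example, went from -0.27 to -0.05 with 10 FPKM required and to -0.0018 with quantile normalization. At 80 against 0 minutes it went from 0.47 to 0.10 with 100 FPKM required and 0.11 with quantile normalization. Of genes taken singly, no named member past 2-fold changed sign. Where the all-gene median moved with scaling, it went from 0.36 to -0.12 (equal medians) and -0.05 (quantile) for 80 against 0 minutes, and from -0.21 to 0.28 and 0.0036 for 0 minutes against the asynchronous culture. The cause of the changes below was not tested unless the setting itself gives it (fewer genes, or a larger pseudocount on low genes).

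With equal medians, for 0 minutes against the asynchronous culture the members' median was 0.037. Those of SRSF, SNRP, HNRNP and U2AF were 0.049, 0.0040, 0.093 and 0.15, and 1 member was at least 2-fold lower (7.49% of all genes). For 80 against 0 minutes 3 members were at least 2-fold higher and 2 lower (6.31% and 6.16% of all genes). For 300 minutes against the asynchronous culture 0 were lower (8.15% of all genes). With quantile normalization, for 0 minutes against the asynchronous culture the medians were 0.0018 for the members and 0.13, 0.029 and 0.035 for SF3A/SF3B, SNRP and U2AF. There 0 members were at least 2-fold higher and 3 lower (10.9% and 11.2% of all genes). For 40 against 0 minutes the medians of SRSF, SNRP, PRPF and HNRNP were -0.012, -0.012, -0.028 and -0.067. For 80 against 0 minutes the members' median was 0.053, SRSF was at -0.062, HNRNP at -0.034, and 0 members were at least 2-fold higher (5.54% of all genes). For 300 against 80 minutes the medians were 0.044 for the members (0.031 relative to all genes), 0.25 for PRPF, 0.11 for HNRNP and 0.27 for U2AF. In this comparison 5 members were at least 2-fold higher and 2 lower (9.11% and 9.3% of all genes). For 300 minutes against the asynchronous culture 1 member was higher (8.38% of all genes). Under this scaling 25 members peaked at 80 or 105 minutes, without a share over all genes to set beside it.

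With 100 FPKM required, the members' medians relative to all genes were 0.090 for 0 minutes and -0.084 for 300 minutes against the asynchronous culture. The median of SRSF for 300 against 80 minutes was -0.016. In these 3 comparisons 0 members were at least 2-fold higher, against 4.28%, 9.72% and 6.68% of genes at this level. At 80 against 0 minutes 0 were 2-fold lower (0.0639%). With 5 FPKM added, 0 members were at least 2-fold higher at 0 minutes against the asynchronous culture (6.48% of all genes). At 80 against 0 minutes 0 were lower (0.449%). At 300 minutes against the asynchronous culture 1 was higher and 0 lower (6.87% and 7.32%). With the highest transcript, 2 members were lower at 300 minutes against the asynchronous culture (8.59% of all genes).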
